A study of Mus musculus with 4 samples.

Results

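The genes described here are 10 ligands and receptors of the vascular endothelial growth factor (VEGF) and angiopoietin pathways, chosen by symbol from a table of 24216 rows that compares molar with incisor dental pulp. They are the VEGF family ligands Vegfa, Vegfb, Vegfc and Pgf, the VEGF receptors Flt1 and Kdr, the angiopoietins Angpt1 and Angpt2, and the TIE receptors Tek and Tie1. Each had 1 row, and all 10 were among the 18770 rows that the authors tested. The cells came from XLacZ4 mice, a reporter line that makes the bacterial enzyme beta-galactosidase in pericytes and vascular smooth muscle, the mural cells of vessels. Dissociated pulp cells were stained with FDG (which fluoresces once beta-galactosidase has cleaved it), and positive cells were collected by flow sorting. There were 2 molar and 2 incisor libraries, all of the same strain with no treatment, and the labels give neither age nor sex nor whether mice were pooled. The extraction text names molars for every library, so the titles, sources and tissue tags were used to tell the teeth apart. In the deposited comparison the incisor sample is named DPFresh and the molar sample MoFresh, which are the descriptions of those libraries. The authors' deposited table holds 1 combined value per tissue. No value here therefore carries a spread between libraries, and effects of the sort, the library or the sequencing run cannot be told apart from those of the tooth. The labels do not state whether the libraries of a tooth derive from different mice.

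VEGF ligands act on receptor tyrosine kinases that are found mainly on endothelial cells, where KDR (VEGFR2) carries most of the growth signal and FLT1 (VEGFR1) binds ligand tightly and can act as a sink. Angiopoietin 1, made largely by mural and mesenchymal cells, activates the endothelial receptor TEK (TIE2) and steadies vessels, while angiopoietin 2 can compete with it. TIE1 is a partner of TEK that binds no angiopoietin well on its own. In the pulp, as in other tissues, pericytes and endothelium meet across a shared basement membrane, and these pathways are a main channel between them.

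The called receptors were higher in molar, and Angpt1 and Angpt2 were higher in incisor. The endothelial receptors Flt1, Kdr and Tie1 were called in the authors' deposited table, by 50.8-fold, 8.51-fold and 39.7-fold, but from low levels in both tissues. The ligands Angpt1 and Angpt2 were called higher in incisor, by 3.16-fold and 5.43-fold. None of the 4 VEGF family ligands was called. A row is named called where the authors' q, their p-value adjusted over all tested rows, lies under 0.05. By that rule 11.9% of tested rows were higher in molar and 4.28% were higher in incisor, against 3 and 2 of the 10 genes. At q under 0.01 the share called in either direction was 11.1% and the genes numbered 3 and 1, without Angpt2, and by the authors' own mark of significance the share was 17.3% and the genes 3 and 2.

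Of the 10 genes, the RefSeq promoter table of GRCm38.p6 (the mm10 build) held 8, and had no entry for Angpt1 and Angpt2. The 250 bases upstream of the RefSeq start are shown for the 4 receptors. All 4 had higher values in molar, although Tek was not called. Bases inside an annotated GENCODE M21 exon were removed, which left 247 for Kdr and 38 for Tie1. Capitals mark GGAA or its reverse complement TTCC, the core of the sites bound by ETS factors, a family that includes the endothelial regulators ERG and FLI1.
Flt1, chr5:147726012-147726261, minus strand: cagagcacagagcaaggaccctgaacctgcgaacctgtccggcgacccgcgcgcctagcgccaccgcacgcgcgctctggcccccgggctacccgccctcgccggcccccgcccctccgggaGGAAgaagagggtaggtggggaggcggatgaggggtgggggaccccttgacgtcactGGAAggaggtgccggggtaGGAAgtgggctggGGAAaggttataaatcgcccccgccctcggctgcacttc
Kdr, chr5:75978459-75978705, minus strand: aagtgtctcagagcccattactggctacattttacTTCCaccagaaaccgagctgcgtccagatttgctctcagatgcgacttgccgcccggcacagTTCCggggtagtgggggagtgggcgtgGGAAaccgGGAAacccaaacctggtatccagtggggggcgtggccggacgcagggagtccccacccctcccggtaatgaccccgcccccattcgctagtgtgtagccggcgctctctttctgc
Tie1, chr4:118490062-118490099, minus strand: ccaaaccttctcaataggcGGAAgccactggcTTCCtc
Tek, chr4:94739039-94739288, plus strand: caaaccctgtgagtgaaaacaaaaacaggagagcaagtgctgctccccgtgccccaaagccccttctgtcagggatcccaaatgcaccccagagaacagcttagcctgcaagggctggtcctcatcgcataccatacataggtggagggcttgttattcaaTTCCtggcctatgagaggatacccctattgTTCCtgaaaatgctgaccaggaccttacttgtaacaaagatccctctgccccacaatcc

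GGAA in either orientation was found 4 times in the Flt1 window, 4 times in that of Kdr, 2 times in that of Tek and 7 times in the full Tie1 window of 250 bases. Of all 32851 promoter windows of that length, 93.4% held at least 1 such match, 33.4% at least 4 and 3.82% at least 7. The longer form CCGGAA, which contains GGAA, was found 1 time in the Kdr window and in none of the other 3, against 12.0% of all windows. GATAA, the core bound by GATA factors, was found in none of the 4 windows on either strand, against 22.6% of all windows. Of the other members' windows, GGAA was found 6 times in the one at the upstream Vegfa start and 2 times in the one at its other start. It was found 1 time each in those of Vegfb and Vegfc, and in neither of the 2 Pgf windows. Annotated exons cover 218 bases of the window at the other Vegfa start and all 250 bases of each Pgf window. These matches describe the letters only.

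Flt1, the high-affinity VEGF receptor that also binds PGF and VEGFB, stood at 0.0695 FPKM (fragments per kilobase of transcript, scaled for depth) in incisor and 3.53 in molar. This was the largest fold among the 10 genes, with a log2 difference of 5.67 and q = 0.000664 in the authors' deposited table. The gene lies on the minus strand of chromosome 5, from 147561604 to 147726011 in GENCODE M21, and its longest transcript has 30 exons and 6895 bases. Flt1 makes both a membrane receptor and a shorter soluble form, and 1 value per gene does not separate them. Kdr, the main signalling receptor for VEGFA (chromosome 5, 75932827 to 75978458, minus strand, 30 exons), stood at 0.297 in incisor and 2.52 in molar, a log2 difference of 3.09 with q = 0.000664. In molar the ratio of Flt1 to Kdr was 1.40.

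Tie1 (chromosome 4, 118471191 to 118490061, minus strand, 22 exons) stood at 0.108 in incisor and 4.27 in molar, the highest molar value of the 4 receptors. Its log2 difference was 5.31, with q = 0.00124. Tek, the receptor that binds the angiopoietins (chromosome 4, 94739289 to 94874976, plus strand, 23 exons), stood at 0.220 in incisor and 1.01 in molar. Its log2 difference of 2.19 was not called, with q = 0.0780 and an unadjusted p of 0.0147, so Tek has the same sign as the other receptors without passing the threshold. Summed over the 4 receptors, FPKM was 0.694 in incisor and 11.3 in molar. With 1 value per tissue, whether neighbours in this order of receptors differ beyond their spread could not be tested.

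**Figure D1:**
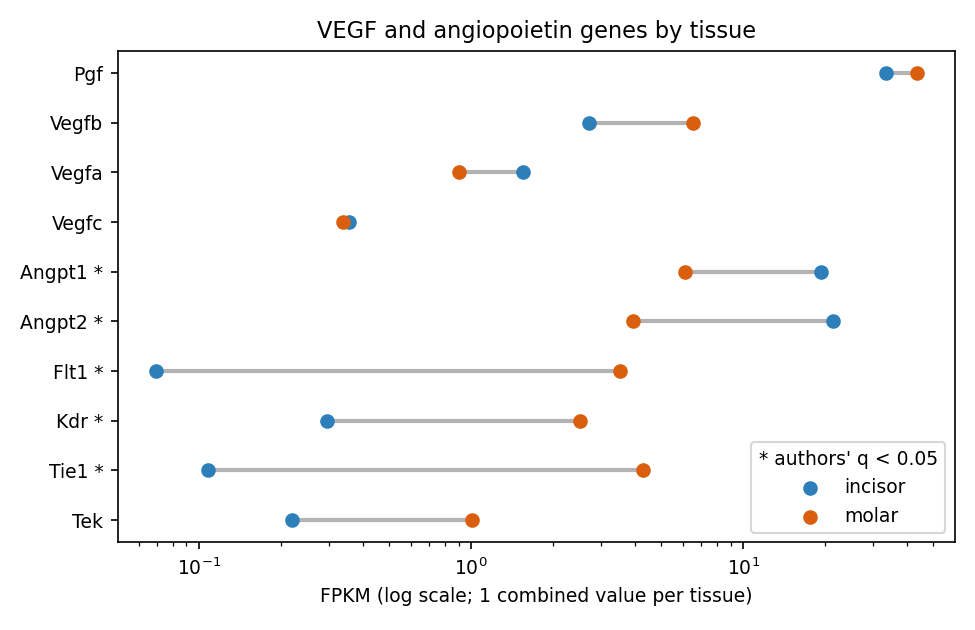
FPKM of each VEGF and angiopoietin gene on a log axis, with 1 point for incisor and 1 for molar and a line joining them. The 4 receptors lie to the right in molar, Angpt1 and Angpt2 lie to the right in incisor, and Pgf is the highest gene in both tissues.

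The molar levels of the receptors were low. Genes for olfactory, vomeronasal and taste receptors, which act mainly in sensory epithelia, were taken as a yardstick after their values had been seen in earlier work. Of 1462 such rows, 49 (3.35%) were above 0 in incisor and 1201 (82.1%) in molar, with a 99th percentile of 0.122 and 3.72 FPKM. The number of these rows that reached the molar level of a receptor was 10 for Tie1, 18 for Flt1, 30 for Kdr and 90 for Tek, or 0.684%, 1.23%, 2.05% and 6.16%. In incisor 23 rows reached the level of Flt1 and 7 that of Kdr, and Flt1 and Tie1 lay under the 99th percentile there, so their folds rest on incisor values in the range of these genes. Of the 715 chemoreceptor rows that the authors tested, 2.66% were called higher in molar. Among all 872 tested rows with an incisor value under 0.3 and a molar value from 1 to under 5 FPKM, a window set around the 4 receptors after their values were seen, 31.8% were called. The longest transcript of a chemoreceptor gene had a median of 3050 bases, against 5924 for Kdr and 4654 for Tek, so that the same FPKM rests on fewer fragments there, and the part of this low signal in the receptor values was not tested.

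**Figure D2:**
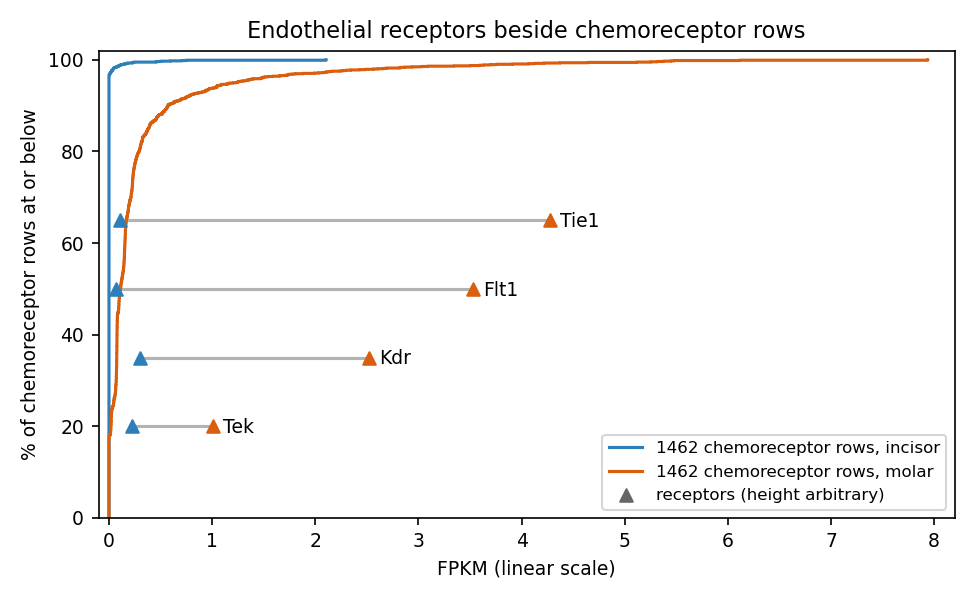
Share of 1462 chemoreceptor rows at or below each FPKM (linear axis), as 1 curve per tissue, with triangles for the incisor and molar values of the 4 receptors at arbitrary heights. The molar values of Tek, Kdr and Flt1 lie under the molar 99th percentile of 3.72, and that of Tie1, 4.27, lies above it.

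Angpt1 (chromosome 15, 42424723 to 42676977, minus strand, 9 exons) stood at 19.4 FPKM in incisor and 6.13 in molar. The log2 difference in the authors' deposited table was -1.66, with q = 0.00994. An antisense gene, Gm17473, overlaps the 5′ end of Angpt1 in GENCODE M21. Angpt2 (chromosome 8, 18690263 to 18741562, minus strand, 9 exons) stood at 21.3 in incisor and 3.93 in molar, a log2 difference of -2.44 with q = 0.0107. Angpt2 lies inside Mcph1, a gene on the opposite strand, and the table gives both rows the same interval. Whether strand was used in counting is not given in the sources used here, so reads of the pair may not be separable. Mcph1 itself was not called, at 3.61 in incisor against 2.34 in molar (q = 0.424).

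Angpt1 and Angpt2 were thus abundant next to Tek in incisor, where Tek stood at only 0.220 FPKM, so ratios to it rest on a low value. With Angpt4, described below, the angiopoietin sum was higher in molar, at 56.3 in incisor and 158 in molar. The sum of Angpt1 and Angpt2 was 40.7 FPKM in incisor and 10.1 in molar. The ratio of Angpt2 to Angpt1 was 1.10 in incisor and 0.641 in molar, and that of Angpt1 to Tek was 87.9 in incisor and 6.08 in molar. In incisor 84.2% of tested rows had a lower FPKM than Angpt1 and 85.2% a lower FPKM than Angpt2, against 68.2% and 60.8% in molar.

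Of the VEGF family ligands, Pgf, placental growth factor, which binds FLT1 and not KDR (chromosome 12, 85166635 to 85177790, minus strand, 7 exons), was the highest of the 10 genes in both tissues. It stood at 33.6 FPKM in incisor and 43.4 in molar, with q = 0.388. Pgf made up 87.9% of the summed FPKM of the 4 VEGF family ligands in incisor and 84.8% in molar. Vegfa, the main ligand of KDR (chromosome 17, 46016993 to 46032369, minus strand), was low in both, with an FPKM of 1.55 in incisor, 0.907 in molar and a q of 0.359. The ratio of Pgf to Vegfa was 21.7 in incisor and 47.9 in molar. GENCODE M21 lists 13 transcripts of Vegfa, whose protein forms differ in how they bind matrix, and the gene-level value does not resolve them.

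Vegfb, a ligand of FLT1 (chromosome 19, 6982473 to 6987651, minus strand), stood at 2.70 in incisor and 6.54 in molar, a log2 difference of 1.27 that was not called (q = 0.284). Vegfc, the ligand of the lymphatic receptor FLT4 (chromosome 8, 54077606 to 54187096, plus strand), was the lowest ligand, at 0.355 in incisor and 0.338 in molar (q = 0.889). Its level was reached by 243 chemoreceptor rows (16.6%) in molar and by 7 in incisor. The 4 ligands together summed to 38.2 FPKM in incisor and 51.2 in molar. In both tissues their order was Pgf, Vegfb, Vegfa and Vegfc, with no spread to say which neighbours differ.

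**Figure D3:**
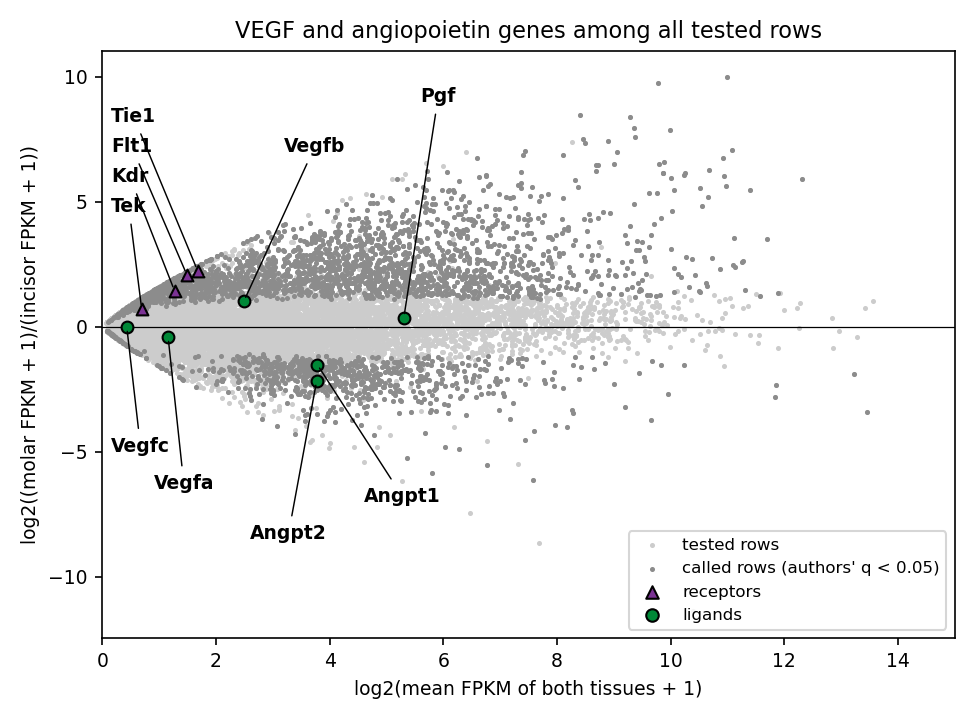
Difference between the tissues, as log2 of molar over incisor FPKM with 1 added to each, against the mean level of the 18770 tested rows, in light grey where not called and darker grey where called. The receptors (triangles) sit at the low end of the level axis and above 0, and of them Tek was not called. Angpt1 and Angpt2 lie among the called incisor-higher rows, and the other 4 ligands (circles) lie among rows that were not called.

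Molar values were higher in general. The median log2 fold of the 15875 tested rows above 0 in both tissues was 0.21, and the FPKM totals of the tissues stood at a log2 ratio of 0.60. Relative to that median the authors' log2 folds become 5.46 for Flt1, 5.10 for Tie1, 2.88 for Kdr, 1.99 for Tek, -1.86 for Angpt1 and -2.65 for Angpt2. With equal totals they become 5.07, 4.71, 2.49, 1.60, -2.25 and -3.04 in the same order. Of the ligands that were not called, Pgf moved from 0.37 to -0.22 with equal totals, while Vegfb stayed higher in molar (0.68) and Vegfa higher in incisor (-1.37) without being called.

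Other genes of both pathways were read from lists, without the 10 genes above. Lists are described by their counts and by the median of log2 of molar over incisor FPKM with 1 added to each, over genes at 1 FPKM or more in either tissue. That median was 0.14 over all tested rows, and -0.32 with equal FPKM totals, so that a list's lean is read against these values. Counts of called genes are likewise read beside the 11.9% of all tested rows called toward molar and the 4.28% called toward incisor. Of 20 other genes of VEGF signalling, 1 was called in the authors' deposited table, Mapkapk2, a kinase that relays the actin response to VEGF, at 6.02 in incisor and 19.9 in molar (q = 0.00592). The list median was 0.41, and -0.15 with equal totals. The VEGF coreceptor Nrp1 stood at 19.0 and 34.0 FPKM and was not called (q = 0.135), and neither was the phosphatase Ptpn6, at 51.4 and 69.9. Nrp1 was thus listed far above both VEGF receptors in each tissue, on a scale per length.

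Of 16 other genes linked to angiopoietins and TIE receptors, 4 were called toward molar and 0 toward incisor, with a list median of 0.37 that turned to -0.18 with equal totals. Angpt4, the third angiopoietin (chromosome 2), stood at 15.6 FPKM in incisor and 148 in molar, a 9.48-fold difference with q = 0.000664. In molar its value was 24.1 times that of Angpt1, against 0.805 times in incisor, so the sum of the 3 angiopoietins was 56.3 in incisor and 158 in molar, the reverse of the order of Angpt1 and Angpt2. The adaptor Dok2, which docks on active TEK and is also found in blood cells, was higher in molar (111 against 25.6), as was Tnip2, an inhibitor of NF-kB signalling (11.9 against 3.06). Ptprb, the endothelial phosphatase that holds TEK inactive, was called at 0.0250 in incisor and 0.624 in molar, a molar level within the range of the chemoreceptor rows. The secreted relative Angptl4 (30.5 in incisor, 62.5 in molar, q = 0.0941) and the integrin subunit Itgb1 (39.3 and 17.4, q = 0.0565) were not called, although Itgb1 carries the authors' own mark of significance, which makes the count toward incisor 1.

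Oxygen-sensing genes control Vegfa transcription in many cells. Of 9 such genes, 1 was called, Epas1, the HIF subunit that is strong in endothelium, at 2.07 in incisor and 10.1 in molar (q = 0.000664). Beside the 11.9% of all tested rows called toward molar, that count does not set the list apart. The list median was -0.59. Egln2 (6.88 and 18.0, q = 0.0502) and Egln1 (9.35 and 4.36, q = 0.204), enzymes that mark HIF for removal, were not called, although Egln2 carries the authors' own mark. Of 19 genes known to respond to VEGF or TIE signals in endothelium, 7 were called toward molar and 0 toward incisor, with a median of 0.93. Among them were Plvap, a protein of endothelial fenestrae (15.4 against 0.310), the peptide Adm (27.9 against 1.92), the transcription factors Klf2 (62.4 against 11.8), Klf4 (37.6 against 12.3) and Nr4a1 (129 against 32.1), and the Notch ligand Dll4 (1.91 against 0.280). Klf2, Klf4 and Nr4a1 are also switched on by handling of cells. Plvap is counted again among the endothelial genes below. The molar value of Dll4 lies under the molar 99th percentile of the chemoreceptor rows, 3.72. The calcineurin regulator Rcan1 (49.8 in incisor, 95.7 in molar) and the basement membrane chain Col4a1 (22.1 in both) were not called.

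Markers of the cells that could carry these genes differed between the tissues too. Of 21 endothelial genes other than the 4 receptors, 15 were called toward molar and 0 toward incisor. Their summed FPKM was 55.6 in incisor and 457 in molar. Of the called genes, Vwf (1.61) and Tal1 (1.56) lay in molar under the 99th percentile of the chemoreceptor rows, 3.72. Robo4 (4.31) and Cdh5 (4.53) lay not far above it. Emcn (87.6 against 0.756), Egfl7 (120 against 7.49), Ramp2 (59.6 against 5.02) and Ecscr (26.0 against 2.47) were higher in molar, and the junction gene Cldn5 was listed at 0 in incisor and had 13.0 FPKM in molar. The endothelial factor Fli1 (14.9 in incisor, 12.3 in molar) and the receptor Calcrl (3.71 and 3.84) were not called. The median of these 21 genes was 2.12, beside 1.76 for the 4 receptors. In sorted bulk RNA, fewer cells of a type and less RNA per cell cannot be told apart, and the part of endothelial cells in the receptor values was not tested.

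Pericyte and mural genes went both ways, with 5 of 18 called toward incisor and 3 toward molar, beside 4.28% and 11.9% of all tested rows. Their summed FPKM was 1334 in incisor and 1282 in molar, and the list median was -0.53. Rgs5 (537 in incisor, 127 in molar), Tagln (153 and 12.4) and Rgs4 (13.1 and 1.97) were higher in incisor, as Angpt1 and Angpt2 were. Ndufa4l2 (4.35 and 145), Kcnj8 (16.0 and 108) and Des (0.155 and 3.17) were higher in molar, and Acta2 (78.8 and 48.4) and Cox4i2 (385 and 762) were not called. The molar value of Des lies under the molar 99th percentile of the chemoreceptor rows, 3.72. Markers of other cell types were abundant too, and whether they stand for cells in the sort or for carried-over RNA was not tested. Of 12 dental epithelial genes 9 were called toward incisor and 0 toward molar, with a median of -2.72, among them the epithelial genes Sfn (51.5 against 1.64), Krt14 (545 against 32.8) and Krt17 (267 against 19.8) and the enamel genes Amelx (20642 against 1937), Mmp20 (29.2 against 2.28) and Enam (165 against 22.9). Epcam (6.25 in incisor, 1.08 in molar, q = 0.383) and Odam, which had the opposite sign (0.0987 in incisor, 4.31 in molar, q = 0.247), were not called. Of 12 macrophage genes 5 were called toward molar, namely Spi1 (18.6 against 2.59), Fcer1g (800.5 against 166), C1qa (757 against 255), Aif1 (479 against 169) and C1qc (528 against 195). Cx3cr1 was called toward incisor (186 against 34.9), and Lyz2 (1903 in incisor, 3340 in molar) and C1qb (1679 and 2145) were not called. The macrophage median was 0.58, and -0.01 with equal totals. The part of these cells in the values of Angpt1 and Angpt2 was not tested.

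**Figure D4:**
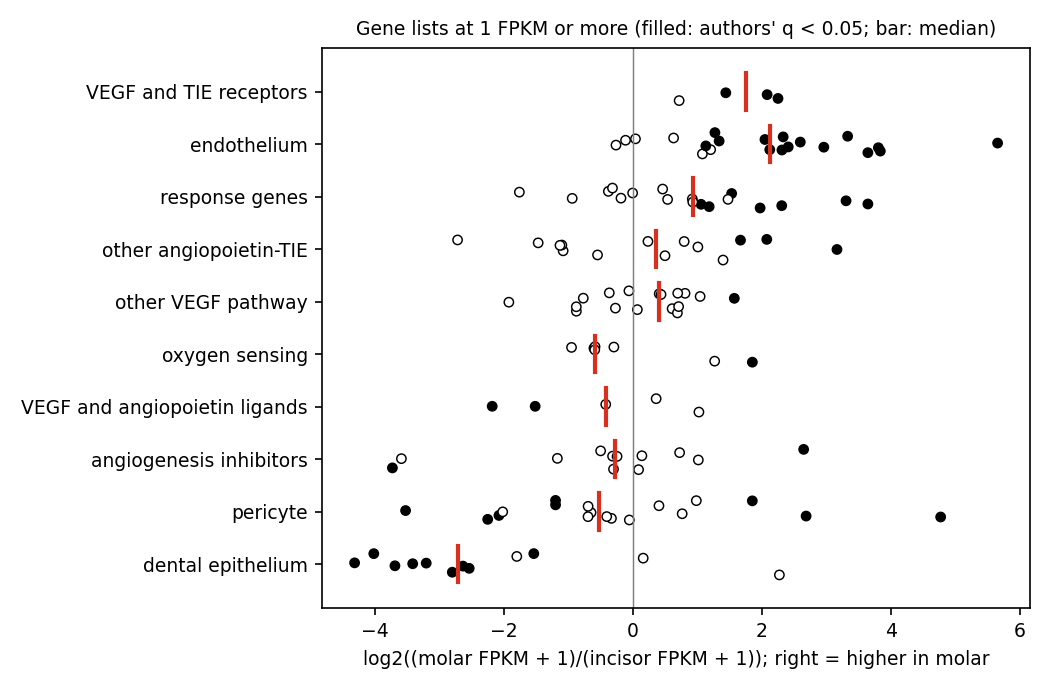
Log2 of molar over incisor FPKM with 1 added to each, for each gene at 1 FPKM or more in either tissue, by list, with filled points for called genes and a bar at the median. The receptors lie to the right of 0 with a median of 1.76. Most endothelial genes lie to the right (median 2.12) and most dental epithelial genes to the left (median -2.72). The endothelial and dental epithelial lists have exceptions, such as Fli1 to the left and Odam to the right. Vegfc is under the minimum and is not drawn.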

How the data were processed

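Per the labels' protocols, RNA of FDG-positive cells was sequenced from 2 molar and 2 incisor libraries. The authors' deposited table gives 1 FPKM value per tissue (the unit is read from the column layout), a log2 fold change of molar over incisor, a test statistic (a score), a p-value and a q-value, per the file headers. The log2 fold equals log2 of the FPKM ratio with no pseudocount. The build mm10 and the tools edgeR, HISAT2 and Trim Galore are named in the submitters' processing notes. Which tool wrote the table, and with what scaling and annotation, is not given in the sources used here. Depth is unknown, since low FPKM values showed no whole-read steps.

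No test was run on these values, and calls are the authors' q under 0.05. The smallest q, 0.000664, is shared by 1414 called rows. Table positions were moved by 1 base to be 1-based. Gene positions and exon counts came from GENCODE M21. Lists hold 154 symbols, and 1 was found under an older symbol. Named from each list were up to 6 called genes with the largest difference and the 2 uncalled genes with the highest mean. Members and lists were chosen with earlier results of these data known. Python 3.11.15, pandas 2.3.3 and numpy 2.4.6 were used. List medians, without a pseudocount or FPKM minimum, and p-value adjustment were run on simulated data without noise. That run checks the code only.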

Additional observations from a re-analysis of the deposited data

How the results depend on the processing

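With calls at q under 0.01, the count of tested rows higher in incisor was 426 in place of 804, and that of the 10 genes higher in incisor was 1 in place of 2, since Angpt2 (q = 0.0107) was lost. The 3 receptor calls remained at that threshold. With the authors' own mark of significance, and with p-values adjusted again over the 13198 rows at 1 FPKM or more, 3 and 2 of the 10 genes were called, and Tek reached q = 0.0579 in the latter. The median difference of the 4 receptors was 1.76 with a pseudocount of 1, 3.56 with 0.1 and 0.63 with 5, so the size of the receptor differences depends on how low values are treated. No called gene of the 10 changed sign under either pseudocount, median centring or equal FPKM totals. No paired analysis was possible because the table holds 1 combined value per tissue, and leaving out each library was not run for the same reason. With equal totals the medians of the other VEGF, other angiopoietin and macrophage lists changed sign. By the authors' own mark, an alternative added after the data were seen, Egln2, Hlx, Itgb1 and Timp3 were also called. The depth behind the receptor values, all under 0.3 FPKM in incisor, is unknown.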

Other observations

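Of 13 genes that restrain vessel growth, 1 was called toward molar and 1 toward incisor in the authors' deposited table, beside 11.9% and 4.28% of all tested rows, so the counts do not set the list apart. The list median was -0.27. Serpinf1, which encodes the secreted angiogenesis inhibitor PEDF, stood at 204 FPKM in incisor and 1288 in molar (6.30-fold, q = 0.000664). Thbs2, a matricellular inhibitor, stood at 37.9 in incisor and 1.94 in molar (19.6-fold higher in incisor, q = 0.000664). Timp3, an inhibitor of metalloproteases that also blocks the binding of VEGF to KDR (61.2 in incisor, 26.6 in molar, q = 0.0507), and the matrix protein Sparc (1228 and 2484, q = 0.252) were not called, although Timp3 carries the authors' own mark of significance, which makes the count toward incisor 2.

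Of 5 tested lymphatic genes, Lyve1, which macrophages also express, was called higher in molar (189 against 54.8, q = 0.00326). The VEGFC receptor Flt4 was not called, with 2.25 FPKM in incisor against 0.772 in molar (q = 0.273), nor was Pdpn, with 23.2 against 9.36 (q = 0.0941). Flt4 was thus listed above Kdr, Flt1, Tek and Tie1 in incisor and below them in molar.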
